A study of Mus musculus with 830 samples.

Results

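The 10 transcription factors Neurod1, Insm1, Nkx2-2, Rfx6, Rfx3, Isl1, Myt1, St18, Runx1t1 and Mlxipl were followed through single cells of mouse embryos that carried a reporter of Neurog3 (Ngn3). They were taken by name from the deposited count table, and all 10 were found among its 26313 gene symbols. Transcripts of 830 cells were read with Smart-seq3xpress, which covers their full length in cells sorted into plates. The cells came from endoderm and gut, were stained for the epithelial protein EpCAM and sorted, with DAPI to exclude dead cells. The question was which of the factors were still transcribed in embryos whose 2 Neurog3 alleles both carry GFP.

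All embryos came from the cross C57BL/6XC3H. The homozygous reporter (HM, Ngn3-GFP/GFP) gave 171 cells from 15 to 27 somites and carries GFP on both Neurog3 alleles. The heterozygous reporter (HZ, Ngn3-GFP/+) gave 326 cells from 15 to 27 somites and keeps 1 allele without GFP, so it is not wild type. The lineage reporter (Ngn3Cre, Ngn3-Cre; Ai6) gave 333 cells from 18 to 27 somites and marks cells that have expressed Cre from Neurog3, together with their descendants. No group without a reporter was analysed here, and the labels do not say if the sort used the reporter's fluorescence.

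Neurog3 is a basic helix-loop-helix factor that is switched on briefly in progenitors of the pancreas and gut and starts endocrine differentiation. Many of the factors described here are known as its targets or as later regulators of hormone-producing cells, and most of them also act in neurons. Rfx6 is in addition known to be expressed in early gut endoderm, before endocrine cells form, and Rfx3 serves ciliated cells of many tissues.

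The labels name no embryo, so the counts of all cells of 1 genotype and stage were summed to a pool, and the 11 pools of at least 10 cells were tested. A p-value here sets a difference against its spread from stage to stage. In a summed pool, fewer cells of a type and less RNA per cell cannot be told apart. The tested pools held 16 to 155 cells and 8299225 to 70763553 reads. Levels are CPM, a gene's reads scaled to all reads of the pool, unless another unit is named. The check of the labels was Neurog3 itself. It stood at 9.40, 8.41, 5.95 and 11.5 CPM in HM pools of 15, 18, 21 and 24 somites, at 130, 133, 90 and 81.1 CPM in HZ pools of 18, 21, 24 and 27 somites, and at 557, 153 and 201 CPM in Ngn3Cre pools of 21, 24 and 27 somites. No HM pool overlapped an HZ pool, and the fitted log2 fold change was -3.69 ± 0.44 (SE, edgeR adjusted p = 0.00336). The labelled tissue is endoderm, but 69 cells formed a cluster with neural or neural crest markers and 19 cells an unnamed cluster led by Rgs13 and Fgf10, and both matter below.

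Promoter windows are shown for the 7 factors that have one. Neurod1, Nkx2-2, Isl1, Myt1 and Mlxipl were each at least 9.4-fold lower in HM at 21 somites. Rfx6 and Rfx3 form a pair whose HM level stayed within 3-fold of HZ at every shared stage. The sequences are from RefSeq for GRCm38.p6, which held windows for 7 of the 10 factors. Of the 3 windows of Myt1 and the 2 of Mlxipl, the one at the gene's first start is printed. The windows end at the RefSeq start of transcription or earlier where an untranslated region was annotated. For Nkx2-2 and Rfx6 that start lies inside the GENCODE gene position given below. The bases before the GENCODE start of these genes are not shown and were not searched. Capitals mark every E-box, CANNTG on either strand, the motif class that basic helix-loop-helix factors bind.
Neurod1, chr2:79456752-79456886, minus strand: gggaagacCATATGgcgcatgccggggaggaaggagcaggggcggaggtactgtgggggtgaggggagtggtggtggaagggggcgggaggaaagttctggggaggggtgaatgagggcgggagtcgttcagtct
Nkx2-2, chr2:147186405-147186652, minus strand: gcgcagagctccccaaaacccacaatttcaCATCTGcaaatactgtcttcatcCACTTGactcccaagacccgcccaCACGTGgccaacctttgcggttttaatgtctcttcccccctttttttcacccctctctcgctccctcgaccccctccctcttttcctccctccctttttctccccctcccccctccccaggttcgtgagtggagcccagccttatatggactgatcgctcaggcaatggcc
Isl1, chr13:116309690-116309938, minus strand: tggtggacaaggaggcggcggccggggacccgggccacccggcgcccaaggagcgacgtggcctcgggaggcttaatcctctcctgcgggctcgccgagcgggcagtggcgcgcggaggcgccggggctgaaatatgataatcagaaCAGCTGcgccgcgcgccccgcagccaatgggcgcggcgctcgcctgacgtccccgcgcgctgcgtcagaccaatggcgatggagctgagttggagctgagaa
Myt1, chr2:181763082-181763331, plus strand: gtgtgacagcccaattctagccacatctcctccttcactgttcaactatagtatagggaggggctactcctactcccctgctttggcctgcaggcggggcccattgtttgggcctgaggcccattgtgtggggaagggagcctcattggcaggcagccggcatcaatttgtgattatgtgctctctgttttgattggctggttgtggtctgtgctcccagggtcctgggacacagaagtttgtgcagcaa
Mlxipl, chr5:135089640-135089889, plus strand: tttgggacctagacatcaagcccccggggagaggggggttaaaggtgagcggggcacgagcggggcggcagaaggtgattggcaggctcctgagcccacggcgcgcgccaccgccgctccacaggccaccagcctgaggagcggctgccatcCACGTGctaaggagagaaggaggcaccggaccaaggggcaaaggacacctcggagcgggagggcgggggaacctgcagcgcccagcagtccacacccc
Rfx6, chr10:51685268-51685517, plus strand: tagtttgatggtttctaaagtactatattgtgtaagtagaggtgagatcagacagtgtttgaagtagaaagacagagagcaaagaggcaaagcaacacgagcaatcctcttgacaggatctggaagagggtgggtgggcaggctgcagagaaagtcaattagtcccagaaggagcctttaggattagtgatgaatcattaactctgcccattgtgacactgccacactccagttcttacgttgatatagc
Rfx3, chr19:28011167-28011416, minus strand: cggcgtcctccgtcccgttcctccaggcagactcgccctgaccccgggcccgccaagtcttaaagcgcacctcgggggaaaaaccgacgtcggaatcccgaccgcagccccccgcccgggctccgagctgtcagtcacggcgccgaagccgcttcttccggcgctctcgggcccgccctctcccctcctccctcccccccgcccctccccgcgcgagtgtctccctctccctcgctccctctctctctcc

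Of the 250 bases before the start, the Neurod1 window covers only 135, and it held 1 E-box (CATATG). That of Nkx2-2 held 3 (1 each of CATCTG, of the form CACTTG and of the palindrome CACGTG) and that of Isl1 held 1 (CAGCTG). The printed Mlxipl window held 1 (CACGTG) and that of Myt1 held none, like the windows of Rfx6 and Rfx3, so an E-box in the printed window does not separate the factors that were low from the pair. The other windows of Myt1 held 2 and 1, and that of Mlxipl held 2. An E-box of any kind was present in 66.2% of all 32851 RefSeq windows, set at 250 bases, which is more than the Neurod1 window covers. The form CAGCTG was in 13% and the form CAGATG, which reads as CATCTG on the other strand, in 14.4%. The RFX motif GTTGCC, searched on both strands and present in 10.4% of all windows, was in none of the 7. These are matches of letters in a short window, not binding sites.

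Across the 3 stages that HM and HZ shared (18, 21 and 24 somites), 9 of the 10 factors were lower in HM at every stage, and Rfx3 was lower at 2 of 3. At 21 somites Neurod1 was 298-fold, Runx1t1 209-fold and Isl1 161-fold lower, while Rfx6 was 2.16-fold and Rfx3 2.7-fold lower. At 24 somites the folds were 1.45 for Neurod1, 8.67 for Runx1t1, 12.4 for Isl1, 1.3 for Rfx6 and 1.28 for Rfx3. The folds depend on the scale. By the authors' TPM averaged over cells, at 21 somites Neurod1 was at 9.41 in HM against 170 in HZ. On that scale Runx1t1 was at 0.435 against 153 and Isl1 at 8.68 against 522. In edgeR's quasi-likelihood test over all cells, Runx1t1, Nkx2-2 and Insm1 fell in HM (adjusted p under 0.05 after Benjamini-Hochberg adjustment over 18420 genes), which is 3 of 10 against 1.38% of all genes tested. All 10 fitted changes were negative, with a median log2 fold change of -3.82, beside -0.09 over all genes. In 5 of the 10 (Insm1, Nkx2-2, Isl1, Myt1 and Mlxipl) every HM pool lay below every HZ pool on TMM-scaled CPM, as in 5.23% of all genes.

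**Figure D1:**
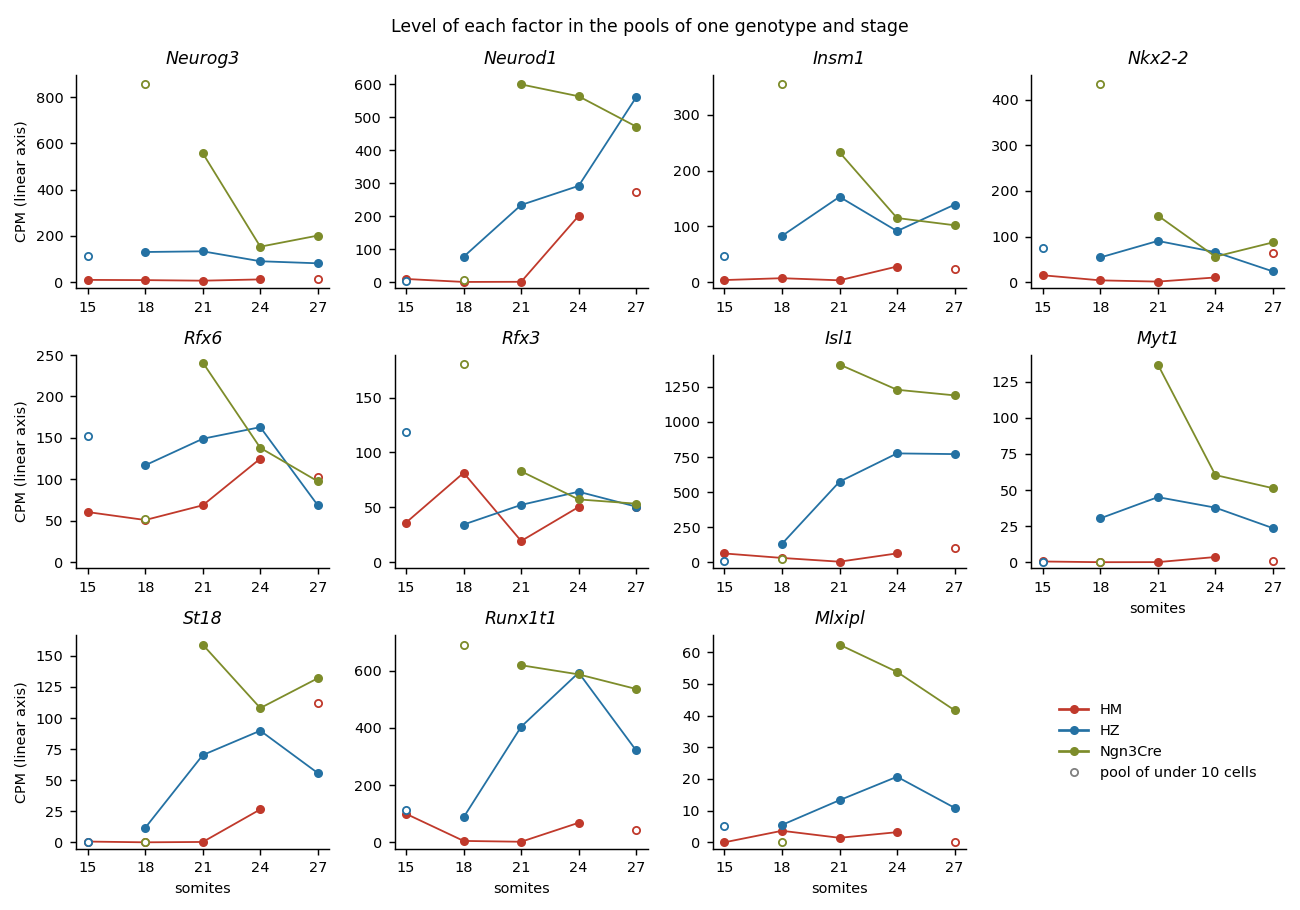
Level of Neurog3 and of each of the 10 factors in CPM (linear axis, own scale per panel) against somite number for HM, HZ and Ngn3Cre, with 1 point per pool and open points for pools of under 10 cells, which were not tested. HM points lie near 0 for most factors at 18 and 21 somites, Neurod1 and St18 rise in HM at 24 somites, the HM line of Rfx6 lies below that of HZ at the 3 shared stages, and the HM and HZ lines of Rfx3 cross.

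Insm1 (chr2:146221921-146225020, plus strand, GRCm38) encodes a zinc-finger repressor needed for endocrine and neuronal differentiation. Its level was 3.61, 6.94, 3.14 and 27.9 CPM in the HM pools of 15 to 24 somites, and 82.9, 153, 91.5 and 139 CPM in the HZ pools of 18 to 27 somites. The highest HM pool, at 24 somites, stayed below the lowest HZ pool. On TMM-scaled CPM the means were 10.3 ± 11.1 (SD, n = 4 pools) in HM and 116 ± 33.7 (SD, n = 4) in HZ. The fitted log2 fold change was -3.38 ± 0.70 (SE, edgeR adjusted p = 0.0496).

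Nkx2-2 (chr2:147177546-147194243, minus strand) encodes a homeodomain factor that sets endocrine subtypes in pancreas and intestine. Its level was 14.9, 3.73, 1.02 and 10.1 CPM in the HM pools and 54.1, 90.3, 65.7 and 23.4 CPM in the HZ pools. No HM pool reached an HZ pool, and the closest were the HM pool of 15 somites and the HZ pool of 27 somites. The log2 fold change was -3.76 ± 0.75 (SE, edgeR adjusted p = 0.0432). Exons of Nkx2-2os on the other strand overlap this gene, and no source says whether strand was used in counting, so their reads may be mixed.

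Runx1t1 (chr4:13743436-13893649, plus strand) encodes a corepressor of the ETO family. Its level was 99.5, 4.86, 1.94 and 68.3 CPM in HM and 87.6, 404, 593 and 321 CPM in HZ. The groups overlapped through the HM pool of 15 somites, a stage with no tested HZ pool, while at each shared stage HM was at least 8.67-fold lower. The log2 fold change was -4.39 ± 0.82 (SE, edgeR adjusted p = 0.034).

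These 3 calls lay near the threshold and depended on single pools. The number of the 10 factors past the threshold was 0 without HZ at 21 somites, HZ at 24 somites or Ngn3Cre at 27 somites. It was 1 without HM at 15 somites, and 2 without HM at 18, HZ at 18, HZ at 27 or Ngn3Cre at 21 somites. Without HM or HZ at 18 somites those 2 were Mlxipl and Isl1, so none of the 3 passed there. The number was 4 without HM at 21 or Ngn3Cre at 24 somites and 6 without HM at 24 somites. Over the 11 fits that each left out 1 pool, the adjusted p ranged from 0.0038 to 0.163 for Insm1, from 0.00995 to 0.131 for Nkx2-2 and from 0.00136 to 0.103 for Runx1t1, and the log2 fold changes stayed at or below -2.55, -2.91 and -3.42. DESeq2's Wald test on the same pools called 8 of 10, all but Rfx6 and Rfx3, among 5.82% of all genes.

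Isl1 (chr13:116298281-116309689, minus strand), a LIM-homeodomain factor required for islet cells and motor neurons, was the most abundant of the 10 in HZ by transcript length. It stood at 62.2, 30.3, 3.56 and 62.7 CPM in HM and at 131, 574, 776 and 771 CPM in HZ. HM and HZ did not overlap, and the log2 fold change was -3.99 ± 0.87 (SE, edgeR adjusted p = 0.061), short of the threshold.

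Neurod1 (chr2:79452521-79456751, minus strand), a basic helix-loop-helix factor directly downstream of Neurog3 in endocrine cells and of other proneural factors in neurons, split the HM pools. Its level was 9.4, 0.347 and 0.786 CPM in HM at 15, 18 and 21 somites, and 201 CPM at 24 somites. In HZ it was 76.8, 234, 292 and 561 CPM. The HM pool of 24 somites lay inside the HZ range and the other 3 lay far below it. Its log2 fold change of -4.13 had an SE of 1.62 (edgeR adjusted p = 0.298) and became -8.34 (adjusted p = 0.00012) without the HM pool of 24 somites. That was the highest HM pool, so a larger fall followed from leaving it out. Of the 11 fits that each left out 1 pool, Neurod1 passed in this 1 only. Exons of Cerkl on the same strand and of Gm26755 on the other overlap Neurod1, so some reads may belong to them.

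The MYT family genes Myt1 and St18, which encode zinc-finger factors of endocrine and neuronal cells, were also highest in HM at 24 somites. Myt1 (chr2:181763332-181827797, plus strand) was at 0.482, 0, 0.0524 and 3.58 CPM in HM and at 30.4, 45.1, 37.8 and 23.6 CPM in HZ, with no overlap. The HM pool of 18 somites held no Myt1 read, which allows a level of up to 0.26 CPM (3 reads, counting error only). Its log2 fold change was -5.46 ± 1.13 (SE, edgeR adjusted p = 0.0502). St18 (chr1:6487231-6860940, plus strand) was at 0.602, 0, 0.288 and 26.5 CPM in HM and at 11.7, 70.2, 89.8 and 55.7 CPM in HZ. Here the HM pool of 24 somites lay above the HZ pool of 18 somites, and the log2 fold change was -3.88 ± 1.17 (SE, edgeR adjusted p = 0.177). Without that HM pool both passed the threshold, at -10.10 (adjusted p = 9.77e-05) for Myt1 and -8.12 (adjusted p = 0.000134) for St18. It was the highest HM pool for both, so larger falls followed from leaving it out. Of the 11 fits that each left out 1 pool, Myt1 passed in 2 and St18 in 1.

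Mlxipl (chr5:135089890-135138382, plus strand) encodes ChREBP, the carbohydrate-responsive factor of liver and beta cells, and was the least abundant of the 10 in HZ by transcript length. It was at 0, 3.64, 1.42 and 3.2 CPM in HM and at 5.49, 13.3, 20.7 and 10.9 CPM in HZ, with no overlap. The log2 fold change was -2.21 ± 0.52 (SE, edgeR adjusted p = 0.0826).

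Rfx6 and Rfx3 encode winged-helix factors of the RFX family, and Rfx6 directs endocrine differentiation in pancreas and gut. Rfx6 (chr10:51677756-51730432, plus strand) was at 60.5, 50.9, 68.7 and 125 CPM in HM and at 117, 149, 163 and 68.6 CPM in HZ. The ranges overlapped, HM being lower at each shared stage by 2.29-fold, 2.16-fold and 1.3-fold. The log2 fold change was -0.82 ± 0.27 (SE, edgeR adjusted p = 0.22). Rfx3 (chr19:27761721-28011166, minus strand) was at 36.1, 81.4, 19.3 and 50.3 CPM in HM and at 34.3, 52.2, 64.2 and 50.6 CPM in HZ. These overlapped fully, with HM the higher at 18 somites, and the log2 fold change was -0.18 ± 0.46 (SE, edgeR adjusted p = 0.907). Its sign turned without HM at 21 somites (0.46) or HZ at 24 somites (0.01), so no direction can be given for Rfx3. Neither p shows that HM and HZ are alike.

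On a length-corrected scale, the mean of the authors' TPM over the cells of a pool, the order in HZ was Isl1 (489 ± 272, SD, n = 4 pools), Neurod1 (209 ± 133), Runx1t1 (134 ± 101), Insm1 (80.6 ± 29.5), Rfx6 (74.5 ± 21.2), Nkx2-2 (63.6 ± 31.9), St18 (23.1 ± 15.2), Myt1 (15.2 ± 5.16), Rfx3 (12.2 ± 5.17) and Mlxipl (6.48 ± 3.84). No neighbours in that order differed by more than the sum of their SDs. In HM the order began with Rfx6 (41.1 ± 19.3, SD, n = 4), Neurod1 (38.6 ± 57.5) and Isl1 (34.4 ± 19.3), and ended with Mlxipl (0.895 ± 0.795) and Myt1 (0.334 ± 0.577). Rfx6 thus moved from the fifth place to the first.

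**Figure D2:**
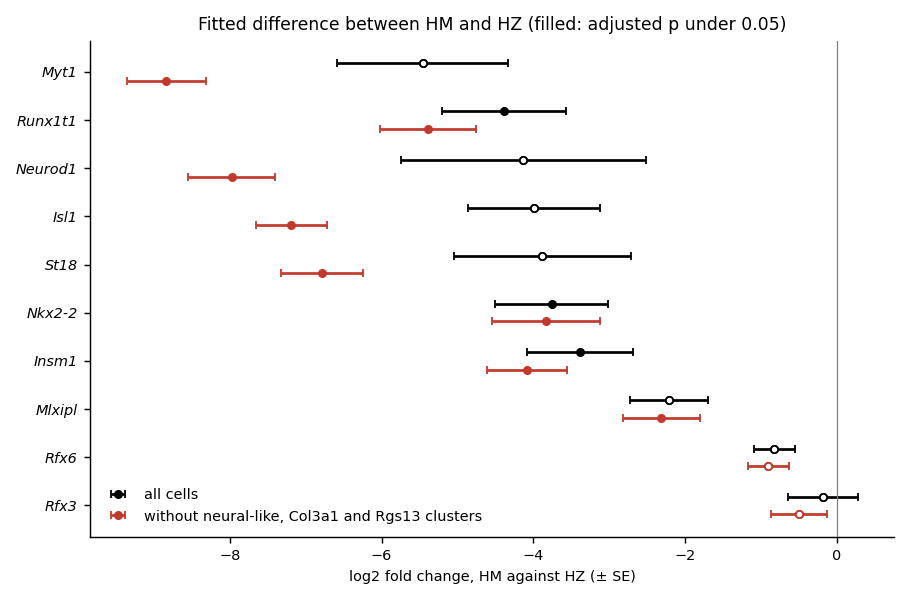
Fitted log2 fold change of HM against HZ for each factor with its SE, over all cells (black) and without the neural-like, Col3a1-led and Rgs13-led clusters (red), with filled points where the edgeR adjusted p is under 0.05. The red set was chosen after seeing where the HM reads lay and is no independent test. Without those clusters 8 of 10 factors pass and the values of Neurod1, Myt1, St18 and Isl1 move furthest from 0. Rfx6 and Rfx3 stay unfilled under both.

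The HM reads of several factors sat in few cells of other classes. The clusters were made without the 10 factors and without the other listed endocrine factors, and were named from marker lists. One unnamed cluster led by Col3a1 carried 5 of 12 mesenchyme markers. In HM, 6 neural or neural crest-like cells and 7 cells of the Rgs13-led cluster together held 98.2% of the 11072 Neurod1 reads, 95.1% of St18 reads, 93.3% of Myt1 reads, 67.7% of Isl1 reads, 60.9% of Insm1 reads and 57% of Runx1t1 reads. Of these 13 cells, 11 belonged to the pool of 24 somites. Summed over them, Neurod1 was at 1230 CPM, beside 901 CPM in the 27 HZ cells of the same clusters, so Neurod1 was present in these cells with and without a GFP-free Neurog3 allele. Neurog3 itself was at 6.01 CPM in the 13 HM cells.

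The neural markers moved with this: over their 16 genes the summed level was 168, 44.7, 14.2 and 1200 CPM in HM at 15, 18, 21 and 24 somites and 835 to 2280 CPM in HZ. Leaving out the neural-like, Rgs13-led and Col3a1-led clusters from every genotype, an alternative chosen after seeing the data, brought Neurod1 in the HM pool of 24 somites from 201 to 2.07 CPM and in the HZ pool of 24 somites from 292 to 291 CPM. Over the 4 HM pools it was then 1.15 ± 1.1 CPM (SD, n = 4) against 207 ± 110 CPM (SD, n = 4) in HZ. St18 became 0.7 ± 0.654 against 61.2 ± 37.5 CPM and Myt1 0.289 ± 0.443 against 40.3 ± 11.8 CPM (SD, n = 4 each). Isl1 became 5.09 ± 4.54 against 678 ± 416 CPM.

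In that comparison 8 of the 10 factors fell in HM, against 2.65% of the 18074 genes tested, and in all 8 the HM pools lay below the HZ pools, as in 6.26% of those genes. The fitted log2 fold changes were -7.98 ± 0.57 for Neurod1, -8.84 ± 0.52 for Myt1, -7.19 ± 0.47 for Isl1, -6.79 ± 0.54 for St18, -5.39 ± 0.63 for Runx1t1, -4.08 ± 0.53 for Insm1, -3.83 ± 0.71 for Nkx2-2 and -2.31 ± 0.51 for Mlxipl (SE, edgeR adjusted p from 6.53e-06 to 0.0352). Rfx6, at -0.90 ± 0.27 (adjusted p = 0.125), and Rfx3, at -0.50 ± 0.37 (adjusted p = 0.583), did not pass. The clusters were defined on these same cells, and those left out were seen beforehand to hold most HM reads of several factors. In HZ the neural-like and Rgs13-led clusters held 38.7% of Neurod1, 13.8% of St18 and 6.09% of Myt1 reads. Larger falls of these factors thus followed from the choice. The adjusted p-values are no independent test, and the gain in calls describes this data set.

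**Figure D3:**
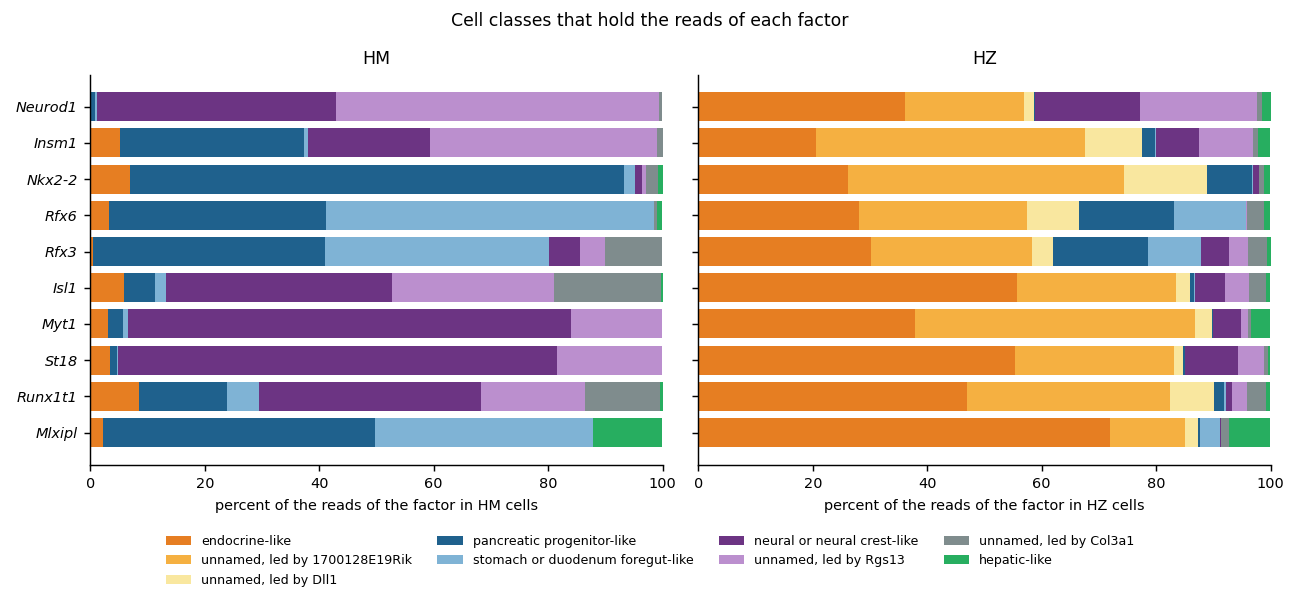
Percent of the reads of each factor in HM cells (left) and HZ cells (right) that fell in each cell class, with bars adding to 100. In HM the reads of Neurod1, Myt1 and St18 are nearly all in the neural-like and Rgs13-led classes, those of Nkx2-2 in pancreatic progenitor-like cells and those of Rfx6 in progenitor-like and foregut-like cells, while in HZ the endocrine-like and 2 unnamed classes hold the largest part of every factor.

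For Rfx6, Nkx2-2, Mlxipl and Rfx3, most HM reads came from epithelial progenitors. Of HM reads, 66 pancreatic progenitor-like and 65 stomach or duodenum foregut-like cells held 95.2% for Rfx6, 88.2% for Nkx2-2, 85.6% for Mlxipl, 79.8% for Rfx3, 32.9% for Insm1 and 1.08% for Neurod1. St18 had 20 and 3 reads in these classes and 55 in the endocrine-like class, all of them in 1 cell, and Myt1 had 5 and 2 reads against 6. Within progenitor-like cells Rfx6 had 105 CPM in HM against 123 CPM in HZ, and within foregut-like cells 130 against 133 CPM. Rfx3 was at 50.6 and 47.1 CPM within progenitor-like cells of HM and HZ, and at 40.3 and 38.1 CPM within foregut-like cells. Both were thus present in these cells of either genotype, but the sums mix stages unequally. Of the foregut-like cells, 41 of 65 in HM and 12 of 32 in HZ were from 24 somites. At 21 and 24 somites Rfx6 was at 92.9 and 157 CPM in HM foregut-like cells, against 130 and 164 CPM in HZ. Rfx3 was at 25.4 and 51.2 CPM there, against 21.2 and 45.9 CPM.

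Nkx2-2 differed between the 2 classes: it was at 19.5 CPM in HM against 30 CPM in HZ within progenitor-like cells, but at 0.35 and 1.3 CPM within foregut-like cells. Insm1 followed the same order, at 14.8 and 16 CPM within progenitor-like cells and 0.262 and 1.59 CPM within foregut-like cells. Neurod1, Myt1 and St18 were under 3 CPM in both classes of both genotypes, so HZ progenitors of this clustering held no more than traces of them either. In a finer clustering (resolution 2), the progenitor-like class included a cluster of 17 HZ and 2 HM cells led by Ascl2. There the HZ level within the class moved past a set ratio for 7 factors, while the HM level stayed for all 10. Comparisons of HM with HZ within this class thus depend on the clustering. In 11 hepatic-like HM cells, a class outside the endocrine path, the highest of the 10 factors was Rfx6 at 6.63 CPM and Neurod1 was at 0.212 CPM. In the 10 HZ cells of that class Neurod1 was at 66.7, Isl1 at 71.8 and Insm1 at 48 CPM, and each reached 10 CPM in 1 of the 10 cells.

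Within progenitor-like cells the levels varied from stage to stage. Nkx2-2 was at 25.1, 7.27, 2.27 and 31.7 CPM in HM at 15, 18, 21 and 24 somites and at 40.5, 15.9 and 43.2 CPM in HZ at 18, 21 and 24 somites. HM was lower at each of the 3 shared stages, with overlapping ranges. Rfx6 was at 106, 59, 108 and 118 CPM in HM and at 142, 106 and 125 CPM in HZ, again overlapping. A test on progenitor-like and foregut-like cells alone, chosen after seeing the data, called none of the 10 factors and none of 15365 genes in edgeR, with 509 genes and 3 factors (Runx1t1, Nkx2-2 and Isl1) at an unadjusted p under 0.05. Its log2 fold changes were -0.46 ± 0.23 for Rfx6, 0.05 ± 0.26 for Rfx3, -2.17 ± 0.57 for Nkx2-2 and -0.72 ± 0.65 for Insm1 (SE).

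**Figure D4:**
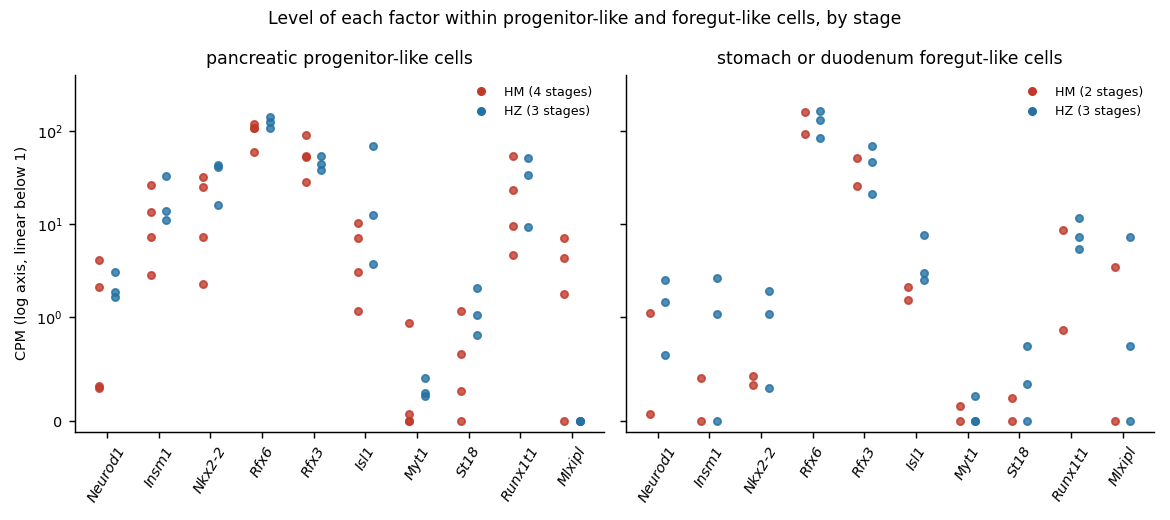
Level of each factor in CPM (log axis, linear below 1) within pancreatic progenitor-like and stomach or duodenum foregut-like cells, with 1 point per HM or HZ stage of at least 5 such cells. Rfx6 and Rfx3 lie between 21.2 and 164 CPM in both genotypes and both classes, Nkx2-2 and Insm1 are higher in progenitor-like than in foregut-like cells, and Myt1 lies under 1 CPM throughout.

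Counted as cells, much the same division appeared, but at 21 somites the share of cells with Rfx3 was also lower in HM. At 21 somites, Rfx6 reached 10 CPM or more in 57.4% of 54 HM cells (exact 95% interval 43.2 to 70.8%) and 79.9% of 149 HZ cells (72.5 to 86%). Rfx3 did so in 38.9% of HM cells (25.9 to 53.1%) and 66.4% of HZ cells (58.3 to 74%). Neurod1 did so in 3.7% of HM cells (0.452 to 12.7%) and 57.7% of HZ cells (49.4 to 65.8%). Myt1 did so in 47% of HZ cells (38.8 to 55.3%) and in 0 of 54 HM cells, for which the limit set by 3 cells is 5.56% and the exact interval ends at 6.6%. Intervals cover counting error only, since cells of a pool share embryos and sort.

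At 24 somites, Rfx3 reached that level in 80% of 80 HM cells (69.6 to 88.1%) and 81.2% of 85 HZ cells (71.2 to 88.8%), and Rfx6 in 76.2% (65.4 to 85.1%) and 85.9% (76.6 to 92.5%). Runx1t1 was the most widespread of the low factors, in 37.5% of HM cells (26.9 to 49%) and 77.6% of HZ cells (67.3 to 86%). Thinned to 100000 reads per cell, the 24-somite shares of cells with a read were 80.8% and 90.1% for Rfx6, 89% and 90.1% for Rfx3, 41.1% and 80.3% for Runx1t1, and 28.8% and 74.6% for Neurod1, in HM and HZ. The order of the 4 factors in HM was the same under both counts, with Rfx3 first and Rfx6 second.

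**Figure D5:**
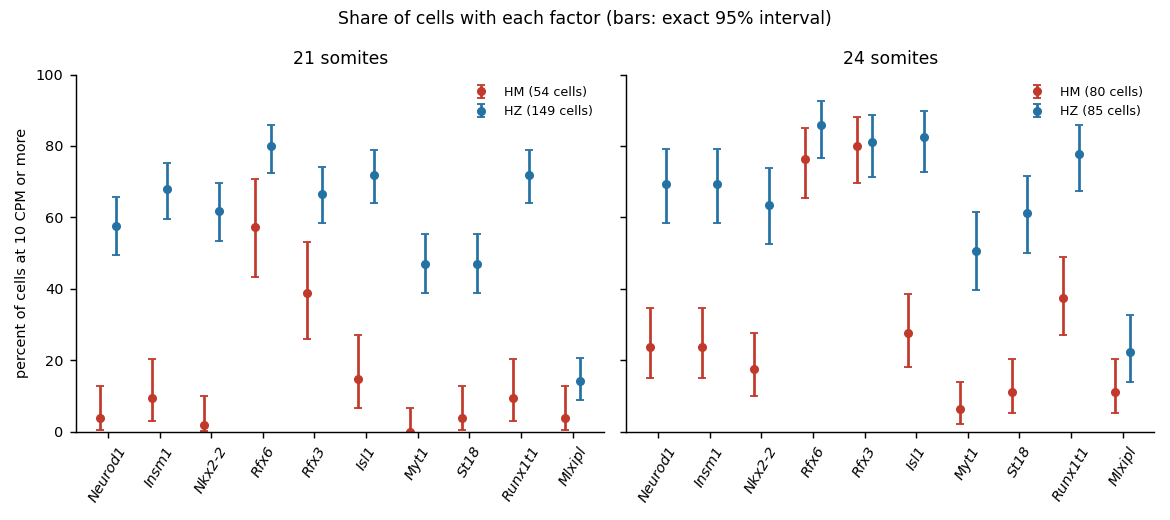
Percent of cells with each factor at 10 CPM or more at 21 and 24 somites in HM (54 and 80 cells) and HZ (149 and 85 cells), with exact 95% intervals for counting error. HM shares are far below HZ for 7 factors, nearer to HZ for Rfx6, close to HZ for Rfx3 at 24 somites, and low in both for Mlxipl.

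The factors were seldom combined in HM cells. The median number of the 10 at 10 CPM or more was 3, 1, 1 and 3 per cell in HM at 15, 18, 21 and 24 somites, 2, 7, 7 and 7 in HZ at 18, 21, 24 and 27 somites, and 9, 8 and 7 in Ngn3Cre at 21, 24 and 27 somites. At least 8 of the 10 were present in 1 of 80 HM cells at 24 somites (1.25%, exact 95% interval 0.0316 to 6.77%) and in 41 of 85 HZ cells (48.2%, 37.3 to 59.3%). In no HM cell of 15, 18 or 21 somites were 8 present.

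A single HM cell of 24 somites, singled out after its values were seen, carried most of the set at 10 CPM or more. It was 1 of 2 HM cells in the endocrine-like clusters and had 553933 reads. It held Ghrl, the hormone ghrelin, at 11200 CPM, Chga at 850 CPM and Chgb at 888 CPM. Its Runx1t1 was at 706 CPM, Rfx6 at 628, Isl1 at 466, Insm1 at 162, Nkx2-2 at 107 and St18 at 99.3 CPM, and it had 0 Neurod1 reads. A second HM cell with Ghrl at 5000 CPM or more, from 27 somites and grouped with the progenitor-like cells, had 160227 reads, with Neurod1 at 25 CPM (4 reads), Nkx2-2 at 262, Rfx6 at 343 and 0 reads of Insm1. Among 44 HZ cells with Ghrl at 5000 CPM or more, Neurod1 was at 10 CPM or more in 77.3%, with a median of 152 CPM. The other HM cell of these clusters had only 25103 reads, with 2 of Neurod1. So few cells give no rate, and whether they were doublets was not tested.

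Cells with and without a Neurog3 read were set side by side within the 24-somite pools. After thinning to 100000 reads at 24 somites, Insm1 had a read in 93% of 43 HZ cells with a Neurog3 read (80.9 to 98.5%) and in 57.1% of 28 HZ cells without (37.2 to 75.5%). Nkx2-2 did so in 83.7% (69.3 to 93.2%) and 50% (30.6 to 69.4%). In HM, Insm1 had a read in 36.1% of 36 cells with a Neurog3 read (20.8 to 53.8%) and 27% of 37 cells without (13.8 to 44.1%). The HM intervals overlapped for every one of the 10 factors, and the difference between genotypes was not tested.

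Compared with HZ, the Ngn3Cre pools held more of all 10 factors by the fitted value, but none passed the threshold in edgeR, beside 0.337% of all genes. Mlxipl came closest: 62.4, 53.8 and 41.7 CPM in Ngn3Cre at 21, 24 and 27 somites, all above the highest HZ pool (20.7 CPM). Its log2 fold change was 2.07 ± 0.45 (SE, edgeR unadjusted p = 0.00101, adjusted p = 0.0967), and it was the 1 factor at an unadjusted p under 0.05 and the 1 that DESeq2's Wald test called (4.99% of all genes). Isl1 was at 1410, 1230 and 1190 CPM in Ngn3Cre, also above every HZ pool, with a log2 fold change of 1.17 ± 0.67 (adjusted p = 0.621). On TMM-scaled CPM, Myt1 (lowest Ngn3Cre pool 49.6 against a highest HZ pool of 44.7) and St18 (104 against 87.5) did not overlap HZ either, which makes 4 of 10 factors, against 8.65% of all genes. Neurod1 (600, 564 and 472 CPM) overlapped HZ, at 0.40 ± 1.23. The HZ pools also serve the HM comparison. Without Ngn3Cre at 21 somites the fitted signs of Neurod1, Insm1, Rfx6, Rfx3, Myt1, St18 and Runx1t1 turned negative, so a direction is given for none of these.

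With stage, Neurod1 and St18 had the largest fitted slopes over all 3 genotypes, 0.35 ± 0.15 and 0.36 ± 0.16 log2 units per somite (SE). Neither passed in edgeR (adjusted p = 0.573 and 0.579), and 0 of 16478 genes (0%) did, with 1377 genes at an unadjusted p under 0.05, these 2 factors among them. DESeq2 called 296 genes and none of the 10. In HZ, Rfx6 and Nkx2-2 were already at 117 and 54.1 CPM at 18 somites, while St18 was at 11.7 CPM there and at 70.2 CPM at 21 somites, and Isl1 went from 131 to 574 CPM. The slope did not differ detectably between HM and HZ for any factor or gene in edgeR (0 of 16207 genes, 0%, with 1232 at an unadjusted p under 0.05, none of them one of the 10), while DESeq2 called 146 genes and none of the 10.

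Across 281 HZ cells of at least 100000 reads, the 10 factors were compared by the correlation of log2(CPM + 10). This is given as a description, since cells share embryos, libraries and depth. Neural-like cells were not left out. In the HZ cells of that cluster Neurod1 and Isl1 were at 801 and 502 CPM, and Rfx6 and Mlxipl at 1.84 and 0.122 CPM. How far this mixture shapes the correlations was not tested. Neurod1 and Isl1 were the closest pair (r = 0.80), followed by Isl1 with Runx1t1 (0.70) and with St18 (0.69). Rfx6, Rfx3 and Mlxipl were loosely tied, with r from 0.09 to 0.49 for Rfx6, from 0.09 to 0.37 for Rfx3 and from 0.09 to 0.33 for Mlxipl. Nkx2-2 overlapped them, with r from 0.11 to 0.63, so the factors formed no clean sets. Insm1 and Nkx2-2 went most closely with Neurog3 (0.62 and 0.70), and Mlxipl least (0.03).

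Among 11115 genes, those most like Neurod1 were Isl1, Igfbpl1 (0.74) and Hpca (0.71), and those most like Isl1 were Neurod1, Hpca (0.80) and Nefm (0.78). Insm1 was nearest to Mfng (0.78), Tubb3 (0.76) and Btbd17 (0.75), and Nkx2-2 to Rph3al (0.76), Prox1 (0.75) and Pkib (0.74). Rfx6 was nearest to Krt7 (0.59), Rap1gap2 (0.57) and Pam (0.56), and Rfx3 to Capn10 (0.41), Rock1 and Runx1t1 (0.37 each). Those near Myt1 included Celf3 (0.73) and Nefm (0.72). St18 was nearest to Isl1 (0.69), Neurod1 and Celf3 (0.68 each), Runx1t1 to Celf3 (0.77), Slc38a5 (0.75) and Nefm (0.71), and Mlxipl to Pax6 (0.50), Pcsk2 and Sesn2 (0.48 each).

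Related genes give the setting. Of 25 other endocrine transcription factors tested, 9 fell in HM and 0 rose (median log2 fold change -1.36). They included Pou3f4 (-8.55 ± 0.52), Pax4 (-7.98 ± 0.57) and Pax6 (-6.90 ± 0.56, SE), with edgeR adjusted p from 0.000117 to 0.000584, as well as Neurog3. Of 31 paralogs and partners of the 10 factors, 2 fell, the ETO-family gene Cbfa2t3 (-4.72 ± 0.85, edgeR adjusted p = 0.0299) and Lhx1 (-4.91 ± 0.81, adjusted p = 0.0202), and the list median was -0.79.

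Lists tied to single factors differed from one another. None of 14 cilia genes of the RFX program was called (median -0.04, 7 negative), and none of 11 carbohydrate-response genes of Mlxipl (median -0.06, 6 negative). Of 12 neuronal and secretory genes that the repressor REST holds down in other tissues, a list that also holds Rest itself, 11 had a negative log2 fold change (median -3.24) and 3 fell: Cplx2 (-3.23 ± 0.31, edgeR adjusted p = 0.00105), Chgb (-3.91 ± 0.77, adjusted p = 0.0408) and Vgf, at 0 reads in the 4 HM pools but 3.52 ± 2.48 CPM (SD, n = 4) in HZ. Endocrine markers followed: 9 of 16 fell. Their summed level over all 16 was lower in HM at 18 and 24 somites but higher at 21 somites, 7140 against 4770 CPM, where Ttr, which hepatic cells also express, made up 7070 CPM in HM. Over the other 15 it was lower in HM at each shared stage.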

How the data were processed

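The 10 factors, the gene lists and the markers were chosen with earlier results of these data known. The tools HISAT2 2.1.0, Trimmomatic 0.39 and FastQC 0.11.9 and the build GRCm38 (mm10) are named per the submitters' processing notes. The counter, any use of strand and any filter on cells were not given in the sources used here. The deposited counts are whole reads per gene and cell, not normalized, and the deposited TPM table holds the authors' length-scaled values for the same cells. Cells held 1400 to 2525083 reads (median 452597); 117 were under 100000 reads. Since no embryo is named, counts were summed to 14 pools of a genotype and stage, and the 11 of at least 10 cells were tested.

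Tests used edgeR 4.0.16 in R 4.3.3 (quasi-likelihood, TMM scaling, default filter on low counts, Benjamini-Hochberg at 0.05), with genotype and stage as factors, or genotype and somite number for slopes. HM and HZ share 3 stages, so the HM pool of 15 somites carries no weight in their contrast beyond the filter, scaling and spread. Alternatives used DESeq2 1.42.0 and limma 3.58.1. The test recovered 200 of 200 changes simulated on 18420 genes for HM against HZ and called 13 unchanged genes. The size and spread set for those changes are not given here. Recovery of changes at the spread seen between the real pools was not tested. Cells were clustered with scanpy 1.11.5 (2000 variable genes, 30 components, 15 neighbours, Leiden resolution 1) without the 10 factors and the other listed endocrine factors, and a cluster was named only where markers of its class led. No doublet caller was run. Positions are from GENCODE vM21, and shares carry exact Clopper-Pearson 95% intervals. Named genes were the 10 factors, Neurog3, up to 6 called genes of each list by smallest p, and the 3 genes most correlated with each factor over HZ cells. A few genes chosen in this way are not reported here.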

Additional observations from a re-analysis of the deposited data

Results flagged for a closer look

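In the HM pool of 24 somites, 4 factors stood apart from the other 3 HM pools on TMM-scaled CPM: Neurod1 at 193, Insm1 at 26.8, St18 at 25.4 and Myt1 at 3.44 CPM. Chance marks about 1 in 20 such groups, and 20 groups were looked at. That pool held 11 of the 13 HM cells of the neural-like and Rgs13-led clusters (13.8% of its 80 cells).

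In the 3 pools left out of the tests for having under 10 cells, 6 values lay above every tested HZ pool. St18 was at 112 CPM in the 4 HM cells of 27 somites, of which 1 was in the neural-like or Rgs13-led clusters. Rfx3 was at 119 CPM in the 5 HZ cells of 15 somites. In the 3 Ngn3Cre cells of 18 somites, Insm1 was at 355, Nkx2-2 at 434, Rfx3 at 181 and Runx1t1 at 691 CPM. These pools hold 303964 to 1764470 reads, and no test was made of them.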

How the results depend on the processing

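The number of the 10 factors lower in HM (3) and of all genes lower in HM (254) became 8 and 1072 with DESeq2's Wald test, and 0 and 0 in limma on mean log2(CPM + 10). It was 0 and 71 in the 6 pools of shared stages, and 5 and 291 (1.35% of genes tested) with no filter on low counts. In limma it was 6 and 207 (1.12%) on log2(mean TPM + 1), and 4 and 61 (0.331%) on mean log2(CPM + 1). Without the neural and mesenchyme marker clusters it was 6 and 356 (1.96%), and 8 and 479 (2.65%) also without the Rgs13-led cluster. In progenitor-like and foregut-like cells it was 0 and 0. The last 2 of these alternatives were chosen after seeing the data. Leaving out each pool gave 0 to 6 factors and 88 to 294 genes. At an unadjusted p under 0.05, limma on mean log2(CPM + 10) held 8 of the 10 and 3196 genes, and the 6 pools 9 of the 10 and 1866 genes. The count of factors that differ between Ngn3Cre and HZ (0) became 1 with DESeq2's Wald test, beside 4.99% of all genes. It also became 1 without the neural and mesenchyme marker clusters, where 272 of 18146 genes were lower in Ngn3Cre and 27 higher. Both times the factor was Mlxipl. No slope was called for a factor under any alternative run.

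Signs turned for HM against HZ in progenitor-like and foregut-like cells for Mlxipl (2.85) and Rfx3 (0.05), and for Ngn3Cre against HZ in limma for Rfx6 (-0.24 and -0.04). Uncalled slopes per somite turned for Rfx6 (0.01), Rfx3 (0.04, 0.06 and 0.12) and Runx1t1 (0.05, 0.08 and 0.11) in limma, and for Myt1 without the neural and mesenchyme marker clusters (-0.04). Leaving out each pool in turn gave log2 ranges through 0 for Rfx3 in HM against HZ (-0.83 to 0.46), for Ngn3Cre against HZ in Neurod1 (-1.39 to 1.11), Insm1 (-0.68 to 0.55), Rfx6 (-0.04 to 0.65), Rfx3 (-0.02 to 0.68), Myt1 (-0.02 to 1.72), St18 (-0.21 to 1.59) and Runx1t1 (-0.17 to 1.11), and for the slopes of Insm1 (-0.04 to 0.16), Rfx6 (-0.09 to 0.03), Rfx3 (-0.04 to 0.01), Isl1 (-0.02 to 0.15), Myt1 (-0.15 to 0.15) and Runx1t1 (-0.15 to 0.27). The cause of these changes was not tested. No paired analysis was possible because the numbers in the labels name single cells and no replicate number is shared by pools; HM and HZ pools were matched by stage, a factor in the fit. The labels name no embryos, so the p-values measure the spread between stages only.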
